A study of Mus musculus with 24 samples.

Results

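Pdia4 and 9 other chaperones and folding enzymes of the endoplasmic reticulum (ER) were followed through whole guts of mouse embryos that lacked Ret, Sema3d or both. The 10 genes were taken by symbol from the authors' deposited tables: Pdia4, Pdia3, Pdia6, Hspa5, Hyou1, Hsp90b1, Dnajb11, Calr, Creld2 and Manf. All 10 were found in each of the 4 tables, among 26260 genes in the largest table and 24602 in the smallest. Pdia4 had been chosen by its positive coefficient for the product of Ret and Sema3d, and the other 9 were added to ask whether related chaperones share that coefficient. The product coefficients are therefore a description of the genes chosen, and nothing is supported with them.

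Poly-A RNA had been sequenced from 24 guts at embryonic day 12.5, with 3 female and 3 male guts of each genotype. The genotypes were Ret-Sema3d double null (homozygous null at both genes), Ret null and Sema3d null (homozygous null at 1 gene each), and wildtype. All guts shared a mixed background of the strains C57BL/6, 129/Sv and C3H. Every library came from 1 whole gut, so fewer cells of a type and less RNA per cell cannot be told apart in any value below. Ret encodes the receptor that the precursors of enteric neurons need to colonise the gut, and Sema3d encodes a secreted axon and cell guidance protein.

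The ER folds proteins that are bound for secretion or for membranes. When unfolded proteins build up there, the sensors ATF6, IRE1 and PERK start the unfolded protein response. Cleaved ATF6 and spliced XBP1 switch on chaperone genes such as the 10 described here, while PERK acts through the translation of ATF4. Tissues with a heavy secretory load carry much of this machinery without any damage. Hspa5 (also called BiP) is the main Hsp70 chaperone of the ER lumen, Hyou1 is its large Hsp70-like partner that exchanges nucleotide, and Dnajb11 is one of its J-domain co-chaperones. Hsp90b1 (GRP94) is the ER member of the Hsp90 family. Pdia4, Pdia3 and Pdia6 are protein disulfide isomerases, which form and rearrange disulfide bonds. Calr (calreticulin) holds glycoproteins and binds calcium, and Pdia3 works with it. Creld2 is an ER stress-induced protein that is linked to disulfide handling. Manf is a small ER protein that is secreted under stress and binds BiP.

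The genes are spread over 8 chromosomes of GRCm38 (GENCODE M21). Pdia4 (ENSMUSG00000025823.9) lies at chr6:47796141-47813430 on the minus strand, and 70.3 Mb separate it from Ret on the same chromosome. Pdia3 (ENSMUSG00000027248.13) lies at chr2:121413775-121438687 on the plus strand. Hspa5 (ENSMUSG00000026864.13) is on the same chromosome, at chr2:34771970-34777547 on the plus strand. Pdia6 (ENSMUSG00000020571.12) lies at chr12:17266545-17284770 on the plus strand, and Hsp90b1 (ENSMUSG00000020048.13) at chr10:86690209-86705509 on the minus strand. Chromosome 9 holds both Hyou1, at chr9:44379490-44392369 on the plus strand, and Manf, at chr9:106838312-106891979 on the minus strand. Calr lies at chr8:84841850-84846934 on the minus strand, Dnajb11 at chr16:22857845-22879634 on the plus strand and Creld2 at chr15:88819646-88826683 on the plus strand. Each interval is the whole gene with its exons, introns and UTRs.

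Promoter windows were read for letters that the ATF6 and XBP1 branch is known to use, because these genes are textbook targets of that branch. RefSeq windows of 300 bases (250 before and 50 after each annotated start, GRCm38.p6) were matched for 8 of the 10 genes. Hyou1 and Manf had no entry. The windows of Pdia4 and Hspa5 are shown whole because they have the largest product coefficients among the genes with a window and differ in their motifs, and that of Pdia3 because its product coefficient is the smallest. Capitals mark the ER stress motifs found, and all sequences run 5′ to 3′ on the strand of the gene. The Pdia4 window is chr6:47813463-47813762, minus strand, the Hspa5 window is chr2:34771840-34772139, plus strand, and the Pdia3 window is chr2:121413652-121413951, plus strand.
Pdia4: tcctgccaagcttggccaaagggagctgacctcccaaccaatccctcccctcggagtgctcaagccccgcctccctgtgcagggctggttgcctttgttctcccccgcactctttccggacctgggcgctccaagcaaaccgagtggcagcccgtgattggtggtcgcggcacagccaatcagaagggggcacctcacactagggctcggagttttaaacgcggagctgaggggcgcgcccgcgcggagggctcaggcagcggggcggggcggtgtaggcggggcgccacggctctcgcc
Hspa5: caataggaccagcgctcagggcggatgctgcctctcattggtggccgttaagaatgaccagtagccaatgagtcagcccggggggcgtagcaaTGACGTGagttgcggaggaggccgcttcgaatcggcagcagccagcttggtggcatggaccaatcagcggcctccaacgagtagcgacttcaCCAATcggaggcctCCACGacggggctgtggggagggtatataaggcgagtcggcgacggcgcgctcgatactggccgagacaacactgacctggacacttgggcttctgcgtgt
Pdia3: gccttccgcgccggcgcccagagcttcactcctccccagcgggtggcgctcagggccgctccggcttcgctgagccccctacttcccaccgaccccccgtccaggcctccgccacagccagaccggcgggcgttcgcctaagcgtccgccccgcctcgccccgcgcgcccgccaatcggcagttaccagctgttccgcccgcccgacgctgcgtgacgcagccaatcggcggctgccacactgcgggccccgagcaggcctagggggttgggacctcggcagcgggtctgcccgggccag

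The ER stress response element (ERSE), bound by ATF6 together with NF-Y, was searched on both strands as CCAAT, any 9 bases and CCACG. It occurred in 39 of 32851 RefSeq promoter windows (0.119%) and in those of 5 of the 8 genes: Pdia6, Hspa5, Hsp90b1, Calr and Creld2. Hsp90b1 held 2 copies. The matched sites are shown to place the element in each gene. Here capitals mark the letters fixed by the search, which are the same in every match by construction, and antisense sites are written as read on the other strand, with positions counted from the start.
Hspa5 (sense, -65 to -47): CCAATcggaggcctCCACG
Pdia6 (sense, -98 to -80): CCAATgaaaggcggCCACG
Hsp90b1 (sense, -212 to -194): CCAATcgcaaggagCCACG
Hsp90b1 (antisense, -107 to -89): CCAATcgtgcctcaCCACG
Calr (antisense, -162 to -144): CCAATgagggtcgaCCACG
Creld2 (antisense, -126 to -108): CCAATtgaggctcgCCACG

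The shorter element ERSE-II, searched on both strands as ATTGG, any base and CCACG, occurred in 12 windows (0.0365%). Dnajb11 held the only copy among the 8 genes, from 8 to 18 bases after the start: ATTGGcCCACG. The core of the unfolded protein response element (UPRE), searched as TGACGTG on both strands, occurred in 661 windows (2.01%), and among the 8 genes in that of Hspa5, from -157 to -151. None of the matches overlapped another. None of the 3 motifs was found in the windows of Pdia4 and Pdia3, which says only that these letters are not in these windows. For Pdia4 the RefSeq start lies upstream of the gene's start in GENCODE M21, so that its window ends before that start. A match is a description of the letters and not a bound site.

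**Figure D1:**
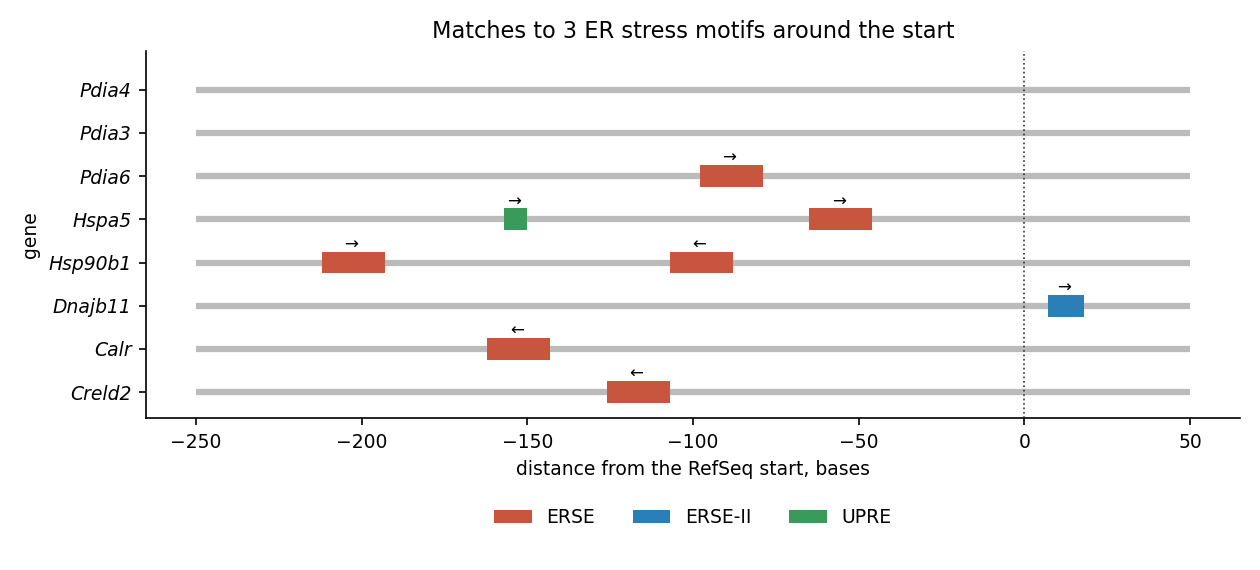
Positions of ERSE, ERSE-II and UPRE matches (coloured boxes; arrows give the strand relative to the gene) along the RefSeq windows of 8 ER chaperone genes, in bases from the annotated start (dotted line). ERSE matches are seen for Pdia6, Hspa5, Hsp90b1, Calr and Creld2, an ERSE-II match for Dnajb11, and no match for Pdia4 or Pdia3.

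The deposited tables hold coefficients of the authors' DESeq models for each gene and no value per gut, so levels are given per genotype as fitted by those models. Coefficients are on a log2 scale. The error after each ± is derived from the deposited coefficient and deviances, and it stands in for a spread between guts, which these tables do not show. In the authors' deposited tables, Ret was lower than in wildtype guts by a log2 coefficient of -10.36 ± 0.29 in double null guts and of -8.34 ± 0.24 in Ret null guts, both past the authors' threshold. In Sema3d null guts the Ret coefficient was -0.19 ± 0.11. Sema3d transcript was lower by -1.04 ± 0.07 in double null guts, -0.27 ± 0.06 in Ret null guts and -1.06 ± 0.11 in Sema3d null guts, so transcript reads of Sema3d remained in the null guts. The summed fitted level of 12 enteric neuron and neural crest markers was 1278 normalised counts in double null guts, 1220 in Ret null guts, 5352 in Sema3d null guts and 5764 in wildtype guts. Epithelial markers of the gut, 8 in number, summed to between 5702 and 5875 normalised counts in the 4 genotypes.

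All 10 chaperones were well expressed. Per kilobase of transcript, the fitted wildtype level in the authors' deposited 24-gut table was highest for Calr, at 3583 normalised counts per kb. Hsp90b1 followed at 3221, Pdia3 at 2256, Hspa5 at 2133 and Pdia6 at 1342 normalised counts per kb. Pdia4 was next, at 987. Hyou1 stood at 503, Manf at 324, Dnajb11 at 244 and Creld2 at 234 normalised counts per kb. Whether neighbours in this order differ beyond their spread cannot be told from tables without values per gut.

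Pdia4 was fitted highest in double null guts and lowest in the guts that lacked 1 of the 2 genes. Its level in the authors' deposited 24-gut table was 2716 in female and 2522 in male double null guts, 2198 and 2041 in Ret null guts, 2143 and 1990 in Sema3d null guts, and 2454 and 2279 normalised counts in wildtype guts, each with female guts first. As a share of the wildtype level, that is 110.6% in double null guts, 89.6% in Ret null guts and 87.3% in Sema3d null guts. The model has 1 sex term for all genotypes, so the order of the genotypes is the same in both sexes by construction.

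Hspa5 and Hyou1, which work as partners, had fitted levels in the same order of genotypes as Pdia4. From the authors' deposited 24-gut table, Hspa5 had 8261 normalised counts in double null guts, 7085 in Ret null guts, 6735 in Sema3d null guts and 7833 in wildtype guts. Hyou1 had 2381 in double null guts, 2114 in Ret null guts, 1950 in Sema3d null guts and 2257 normalised counts in wildtype guts. The J-domain co-chaperone Dnajb11 had the same order within a narrower range, at 621, 576, 572 and 614 normalised counts in double null, Ret null, Sema3d null and wildtype guts.

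Hsp90b1, Manf, Calr and Creld2 were lowest in Ret null guts instead. In the authors' deposited 24-gut table Hsp90b1 had 9877 normalised counts in double null guts, 8545 in Ret null guts, 8678 in Sema3d null guts and 9098 in wildtype guts. Manf had 758 in double null guts, 641 in Ret null guts, 665 in Sema3d null guts and 729 normalised counts in wildtype guts. Calr had 8482 in double null guts, 7386 in Ret null guts, 7763 in Sema3d null guts and 7825 in wildtype guts. Creld2, the least abundant of the 10, had 341, 290, 308 and 319 normalised counts in double null, Ret null, Sema3d null and wildtype guts.

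Of the other 2 disulfide isomerases, Pdia3 ranged least of the 10 genes. Pdia6 kept the order of Pdia4, with 3189 normalised counts in double null guts, 2918 in Ret null guts, 2877 in Sema3d null guts and 2919 in wildtype guts of the authors' deposited 24-gut table. Pdia3 had 6527 in double null guts, 6285 in Ret null guts, 6396 in Sema3d null guts and 6248 normalised counts in wildtype guts. Pdia3 was the only 1 of the 10 genes whose fitted wildtype level was below that of all 3 null genotypes.

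**Figure D2:**
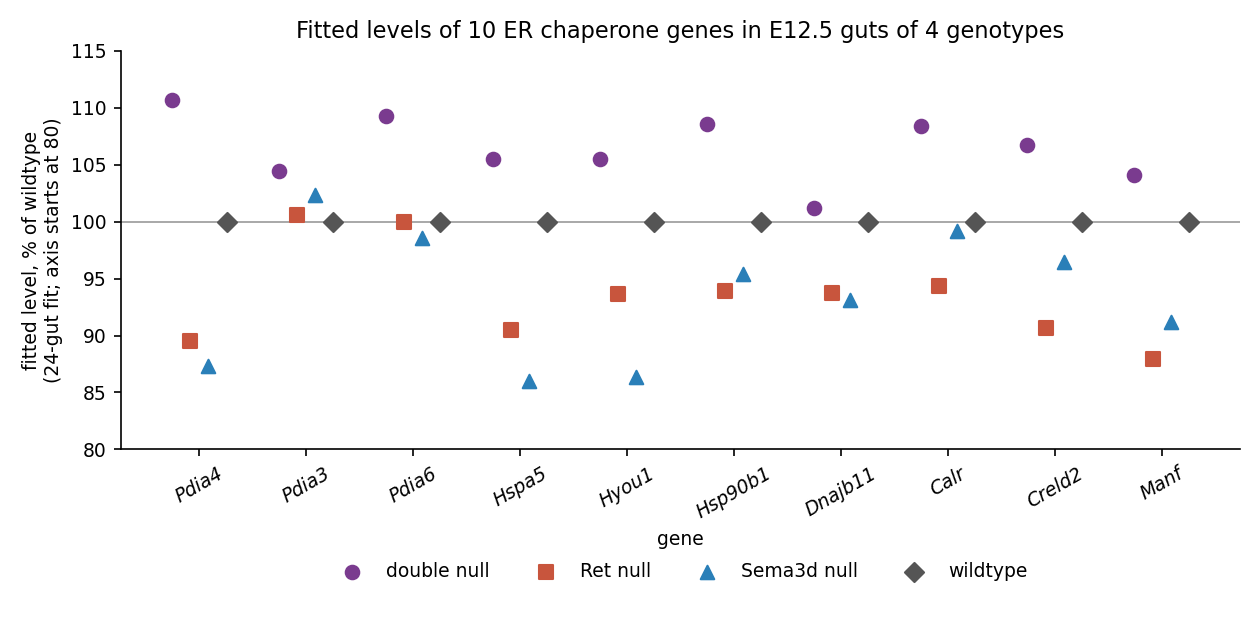
Fitted level of each of 10 ER chaperone genes as a percentage of its wildtype level in the authors' 24-gut model, for double null, Ret null, Sema3d null and wildtype guts (1 point per genotype; no error is drawn because the model gives none for these levels). Pdia4 stands at 110.6% in double null guts, 89.6% in Ret null guts and 87.3% in Sema3d null guts, while Pdia3 stays close to 100% in every genotype.

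In double null guts none of the 10 genes passed the test against wildtype. The authors' deposited table for double null and wildtype guts (6 guts each, sex as a covariate, DESeq likelihood-ratio test) gave adjusted p-values of 0.884 to 1.00 for them. Of the 24663 genes tested there, 2.1% were called at an adjusted p under 0.05, in either direction. All 10 coefficients were above 0, as were 51.5% of all genes, and their median was 0.09 beside 0.01 over all genes tested. This count and median include Pdia4, and without it the median was 0.08. The highest was that of Pdia4, at 0.14 ± 0.08 in the authors' deposited table (unadjusted p = 0.0762, interval from -0.02 to 0.30). Pdia6 followed at 0.13 ± 0.10, Hsp90b1 at 0.12 ± 0.07 and Calr at 0.12 ± 0.09, and Dnajb11 was lowest at 0.02 ± 0.07. No gene had an unadjusted p under 0.05, against 6.71% of all genes tested. Every 95% interval therefore included 0, because the intervals are derived from the same deviances. Among 12158 genes with a fitted wildtype level of at least 50 normalised counts, 521 were under 0.05 with a positive and 642 with a negative coefficient.

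In Ret null guts none of the 10 genes passed either. The authors' deposited table for Ret null and wildtype guts (6 guts each) gave DESeq adjusted p-values of 0.534 to 1.00, in a table where 2.66% of 24602 genes were called. Coefficients were below 0 for 9 of the 10 genes, as they were for 50% of all genes, with a median of -0.09 beside -0.00 over all genes tested. Pdia4 is included in this count and median, and without it the median was -0.09. Pdia4 had -0.16 ± 0.08 in the authors' deposited table (unadjusted p = 0.0397, DESeq adjusted p = 0.534). That value enters the product coefficient by which Pdia4 was chosen. None of the other 9 genes was under 0.05 before adjustment, where 8.43% of all genes were. Among 12144 genes with a fitted wildtype level of at least 50 normalised counts, 584 were with a positive and 889 with a negative coefficient. Manf, with a larger error than Pdia4, had -0.19 ± 0.11 in the authors' deposited table (unadjusted p = 0.102). Hspa5 had -0.15 ± 0.10 and Creld2 -0.14 ± 0.12, and Pdia3 had 0.01 ± 0.04 and Pdia6 -0.00 ± 0.09.

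In Sema3d null guts again none passed. The authors' deposited table for Sema3d null and wildtype guts (6 guts each) gave DESeq adjusted p-values of 0.962 to 1.00, in a table where only 0.0404% of 24747 genes were called. The coefficient was below 0 for 9 of the 10 genes, against 48.4% of all genes, and the median was -0.08 beside 0.01 over all genes tested. Hspa5 had -0.21 ± 0.11 (unadjusted p = 0.0510), Hyou1 -0.21 ± 0.09 (unadjusted p = 0.0178) and Pdia4 -0.19 ± 0.09 (unadjusted p = 0.0306) in the authors' deposited table. Hyou1 was thus the only 1 of the 9 genes besides Pdia4 under 0.05 before adjustment, where 4.53% of all genes were. Among 12209 genes with a fitted wildtype level of at least 50 normalised counts, 347 were with a positive and 473 with a negative coefficient. The Pdia4 value enters the product coefficient by which that gene was chosen, so it is left out of the count under 0.05. The 9 of 10 genes below 0 and the median of -0.08 include it, and without Pdia4 the median was -0.06. Calr had -0.01 ± 0.11, Pdia6 -0.02 ± 0.11 and Pdia3 0.04 ± 0.08. Coefficients in this table varied with transcript length, from a median of 0.12 in the shortest of 20 bins of genes to -0.13 in the longest. With that trend subtracted, the median of the 10 genes was -0.13 in place of -0.08. With a trend in GC content subtracted it was -0.09, and Calr and Pdia6 had 0.01 each, which left 7 of 10 below 0.

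The 3 comparisons share the same 6 wildtype guts, so they are not independent of each other and are given side by side only. Their differences make up the product coefficient by which Pdia4 was chosen, so its values in them are not independent of that choice. A p that misses the threshold does not show that the genotypes were alike. For Pdia4 the 95% intervals reached from -0.02 to 0.30 in double null guts, from -0.31 to -0.01 in Ret null guts and from -0.37 to -0.02 in Sema3d null guts, on the log2 scale of the authors' deposited tables. The median derived error of the 10 genes was 0.08 in Ret null guts and 0.11 in Sema3d null guts.

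The product coefficient of the 24-gut model asks whether loss of both genes differs from the sum of the separate losses. On the log2 scale it equals the double null difference minus the Ret null and the Sema3d null differences. In the authors' deposited 24-gut table it was 0.50 ± 0.11 for Pdia4 (interval from 0.29 to 0.71, a 1.42-fold departure), with an unadjusted p of 2.85e-06 and a DESeq adjusted p of 0.00542. Pdia4 ranked 13 by p among 26258 tested genes, and 5 among the 12178 genes whose fits converged and whose fitted wildtype level was at least 50 normalised counts. Of the 10 genes it was the only 1 called, in a table where 0.164% of genes were called in either direction and 0.129% with a positive coefficient. These are the values by which Pdia4 was chosen, so nothing is read from them.

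Among the 9 chosen after Pdia4, every product coefficient in the authors' deposited table was above 0, where 50.5% of all genes were, but none was called. Hspa5 had the next highest in the authors' deposited table, at 0.44 ± 0.14 (unadjusted p = 0.00192, DESeq adjusted p = 0.245). The authors' deposited table gave 0.38 ± 0.11 for Hyou1 (unadjusted p = 0.000316, DESeq adjusted p = 0.109) and 0.38 ± 0.16 for Manf (unadjusted p = 0.0166, DESeq adjusted p = 0.568). It gave 0.28 ± 0.10 for Hsp90b1, by the authors' likelihood-ratio test (unadjusted p = 0.00647, DESeq adjusted p = 0.413). Those 4 of the 9 were under 0.05 before adjustment with a positive coefficient, where 4.07% of all genes tested were. Among 12187 genes with a fitted wildtype level of at least 50 normalised counts, 800 were. Pdia4 is not counted with them because it was chosen by this value. The 9 were themselves chosen with earlier results of these data known, so their count is a description and supports nothing.

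The remaining 5 genes had lower or less certain product coefficients in the authors' deposited table. Creld2 had 0.29 ± 0.19, Dnajb11 0.21 ± 0.13, Calr 0.21 ± 0.12 and Pdia6 0.15 ± 0.12, and the interval of each included 0. Pdia3, the isomerase that serves the calreticulin cycle, had 0.02 ± 0.10, with an interval from -0.18 to 0.22. The median of the 10 genes was 0.28 beside 0.00 over all genes tested. The product coefficients of the genes with an ERSE match ran from 0.15 for Pdia6 to 0.44 for Hspa5, and the 2 windows without any match belonged to Pdia4, at 0.50, and Pdia3, at 0.02.

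**Figure D3:**
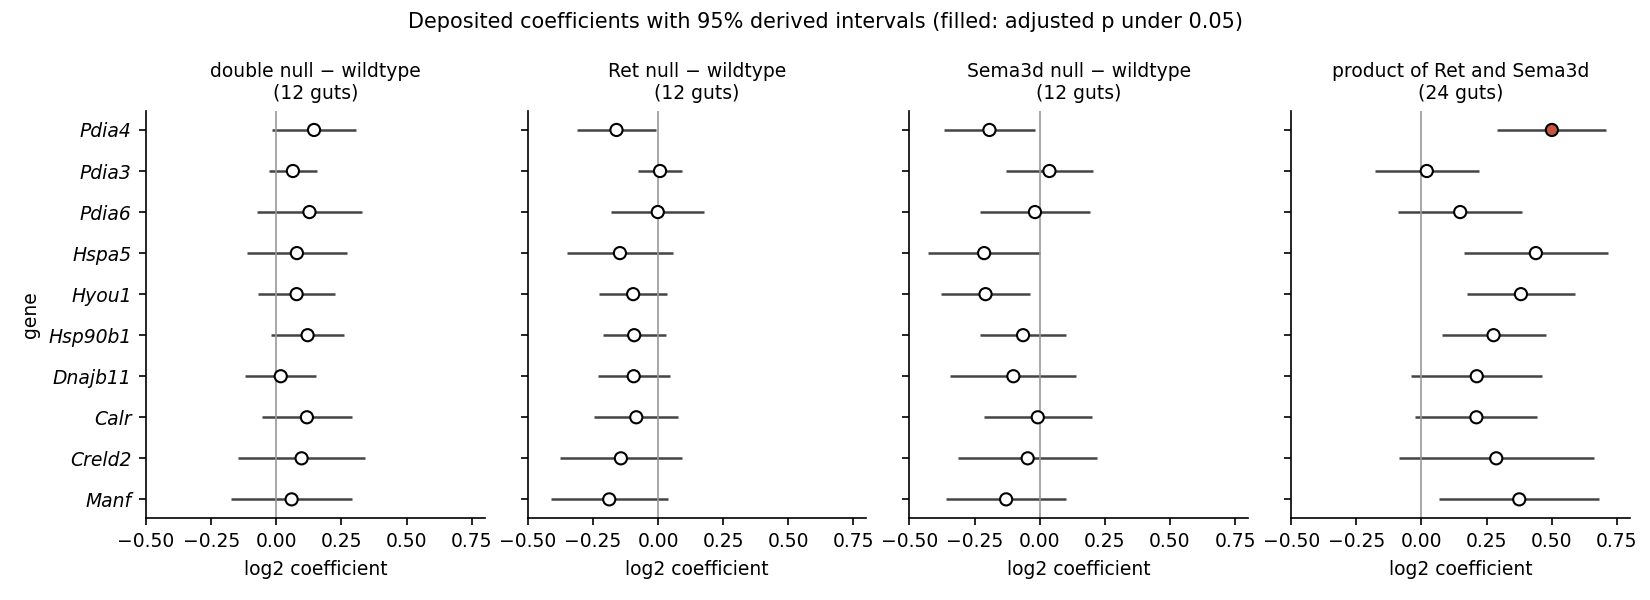
Coefficients of 10 ER chaperone genes in the authors' deposited tables, on a log2 scale: double null, Ret null and Sema3d null guts each against wildtype (12 guts a panel) and the product of Ret and Sema3d (24 guts). Points are coefficients, lines are 95% derived intervals, and the filled point, Pdia4 in the product panel at 0.50, is the only one with an adjusted p under 0.05.

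Double null guts can also be set against each single null genotype in the authors' deposited 24-gut table, for which the tables hold no test. For Pdia4 the double null guts lay 0.31 above Ret null guts and 0.34 above Sema3d null guts on the log2 scale. Over the 10 genes the median difference was 0.20 from Ret null and 0.17 from Sema3d null guts, beside -0.00 and 0.01 over genes with a level of at least 50. The smallest of these differences were those of Pdia3, at 0.05 and 0.03.

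Other genes of the ER folding pathway were taken from lists chosen with earlier results known, and are given by their counts. Of all genes tested in the product term, 4.07% had a positive and 2.72% a negative coefficient with a p under 0.05 before adjustment. Of 15 other disulfide isomerases and oxidases, 1 was called with a positive product coefficient in the authors' deposited 24-gut table, 3 were under 0.05 before adjustment, all positive, and 9 had a coefficient above 0, with a median of 0.05. The gene called was Ero1lb, an oxidase that passes oxidising equivalents to disulfide isomerases, which the authors' deposited table lists at 0.93 ± 0.23 (DESeq adjusted p = 0.0489). That value lies just under the threshold of 0.05, and no re-adjusted value is given for Ero1lb. Ero1lb fell in Ret null guts of the authors' deposited table, with a coefficient of -0.64 ± 0.15 (DESeq adjusted p = 0.00104), and had -0.22 ± 0.16 in double null guts and -0.51 ± 0.16 in Sema3d null guts (DESeq adjusted p = 0.481). The thioredoxin-domain protein Txndc11 had a product coefficient of 0.42 ± 0.13 in the authors' deposited table (DESeq adjusted p = 0.168), and Tmx3, a membrane-bound isomerase, had 0.28 ± 0.12. Txndc12, a small luminal thioredoxin-like protein, had -0.18 ± 0.12.

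Of 19 other ER folding and co-chaperone genes, none was called by DESeq in the product term, 5 were under 0.05 before adjustment, all positive, and 13 had coefficients above 0, with a median of 0.17. The authors' deposited table gave 0.42 ± 0.13 for Dnajc3, a BiP co-chaperone (DESeq adjusted p = 0.174), and 0.40 ± 0.12 for Uggt2, of the family that senses misfolded glycoproteins. Canx, the membrane-bound counterpart of calreticulin, had 0.25 ± 0.10. Clgn, a calnexin homolog known from testis, had 1.30 ± 0.43 at a fitted wildtype level of 22.0 normalised counts. Dnajc1, a membrane J-domain partner of BiP, fell in Ret null guts of the authors' deposited table, with a coefficient of -0.28 ± 0.07 (DESeq adjusted p = 0.00175), and had -0.16 ± 0.07 in double null and -0.01 ± 0.10 in Sema3d null guts.

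Of 17 genes of ER-associated degradation, which extracts misfolded proteins, none was called by DESeq in the product term, and 4 positive and 1 negative coefficient were under 0.05 before adjustment. Of the 17, 11 were above 0, and the median was 0.13. Edem3 had, per the authors' deposited table, 0.39 ± 0.13, Sel1l 0.36 ± 0.11, Edem1 0.33 ± 0.12 and Derl2 0.27 ± 0.13. Edem1, which hands misfolded glycoproteins to degradation, fell in Ret null guts of the authors' deposited table, with a coefficient of -0.22 ± 0.06 (DESeq adjusted p = 0.0148). It had -0.18 ± 0.06 in double null guts and -0.29 ± 0.10 in Sema3d null guts of the authors' deposited tables, neither past the threshold after adjustment.

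The sensors and transcription factors of the response showed less. Of 15 such genes none was called by DESeq in the product term, 1 negative coefficient was under 0.05 before adjustment, 9 were above 0 and the median was 0.06. The authors' deposited table gave 0.35 ± 0.20 for Xbp1, 0.17 ± 0.10 for Creb3l2 and -0.21 ± 0.16 for Creb3, which are transcription factors, and -0.29 ± 0.12 for Nfyc, a subunit of NF-Y. Of 16 genes known as targets of PERK and ATF4, none was called, 2 negative coefficients were under 0.05 before adjustment, 8 were above 0 and the median was -0.03. Shmt2 and Phgdh, enzymes of serine and glycine metabolism, had -0.25 ± 0.11 and -0.24 ± 0.12, and the amino acid transporter subunits Slc3a2 and Slc7a11 had -0.26 ± 0.14 and -0.52 ± 0.44 in the authors' deposited table.

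In the lists for entry into the ER, for attachment of glycans and for chaperones outside the ER, the medians lay near 0. None of 16 translocon and signal peptidase genes was called by DESeq in the product term, and 0 were under 0.05 before adjustment (9 above 0, median 0.01). None of 10 oligosaccharyl transferase genes was called (5 above 0, median -0.01). Magt1, the 1 under 0.05 before adjustment, had 0.38 ± 0.11 in the authors' deposited table (DESeq adjusted p = 0.141). Of 22 cytosolic chaperones none was called, 1 was under 0.05 before adjustment, 14 were above 0 and the median was 0.03. The cytosolic Hsp110 gene Hsph1 had 0.54 ± 0.20 in the authors' deposited table (DESeq adjusted p = 0.454) and the abundant Hsp90ab1 had -0.17 ± 0.10. None of 10 mitochondrial chaperones was called, and 0 were under 0.05 before adjustment (5 above 0, median -0.01). Against wildtype, Ero1lb, Dnajc1 and Edem1 in Ret null guts were the only genes of these 9 lists called by DESeq. Of all genes tested, 2.66% were called in Ret null guts, 2.1% in double null guts and 0.0404% in Sema3d null guts, so these 3 calls are not read as a result about the lists. In double null and Sema3d null guts the lists held no call, with 0 to 5 genes per list under 0.05 before adjustment. The differences between these lists were not tested.

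**Figure D4:**
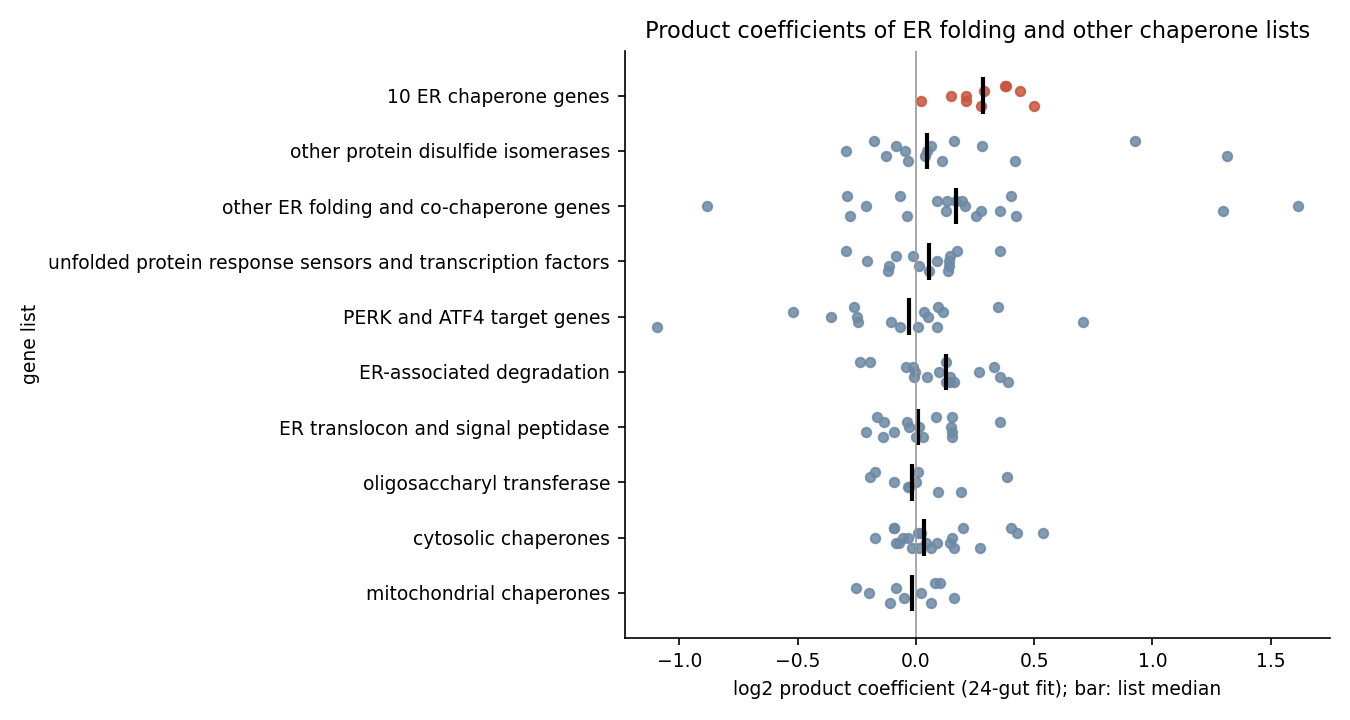
Product coefficients (log2, authors' 24-gut table) of the 10 ER chaperone genes, in red, and of 9 related lists, in blue, with 1 point per gene and a black bar at each median. The median is 0.28 for the 10 genes, 0.17 for other ER folding and co-chaperone genes and 0.13 for ER-associated degradation, and lies between -0.03 and 0.06 in the other lists.

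By the pattern of the 3 fitted differences from wildtype, the gene nearest to Pdia4 among 12186 with a level of at least 50 was Zkscan16, a zinc finger gene, at a Euclidean distance of 0.0171 log2 units. Gm42878, Gm16638, Edil3, Hgf, Kcnq3, Hsph1 and Itga2 followed, at distances of up to 0.0593. None of these 8 genes had a called product coefficient in the authors' deposited table, with DESeq adjusted p-values of 0.358 to 0.880. Among the 10 chaperones, Hspa5 ranked 12, Hyou1 39 and Manf 66 by this distance. Hsp90b1 ranked 222, Creld2 266, Dnajb11 460, Calr 1028, Pdia6 2162 and Pdia3 4600. The distance was computed over 4 genotypes that share 1 model, and says nothing of shared control.

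Product coefficients rose with transcript length over the whole 24-gut table. The median was -0.17 in the shortest of 20 bins of genes, with a median transcript of 741 nt, and 0.21 in the longest, at 9961 nt. The 10 chaperones have transcripts of 1366 nt (Creld2) to 4489 nt (Hyou1). With the bin trend subtracted, the coefficient of Pdia4 in the authors' deposited table was 0.55 in place of 0.50, the median of the 10 was 0.31 in place of 0.28, and all 10 stayed above 0. A trend with the GC content of the transcript ran the other way, with a bin median of 0.13 at 38.7% GC and -0.10 at 61.3% GC. With it subtracted, Pdia4 had 0.45, the median of the 10 was 0.27 and Pdia3 had -0.03.

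**Figure D5:**
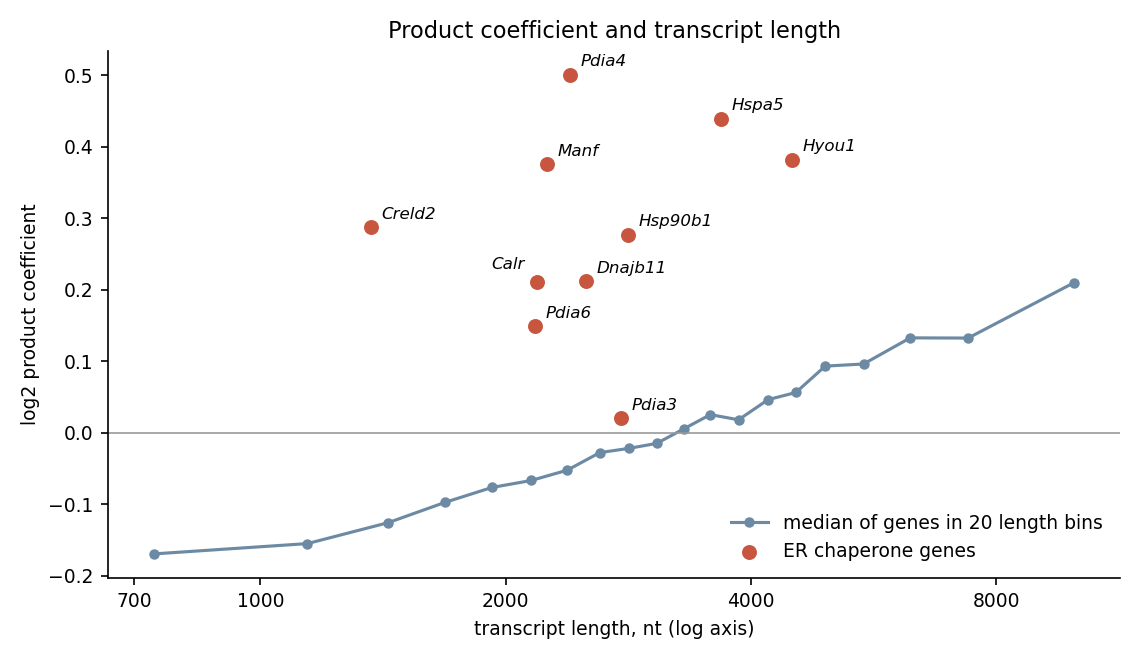
Product coefficient (log2) against transcript length (nt, log axis) for 10 ER chaperone genes (red points) and the median of genes with a level of at least 50 in 20 length bins (blue line). The bin medians climb from -0.17 to 0.21 with length, and all 10 genes lie above the line at their own length.

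The guts also held RNA of other cell types, and the marker lists of those types are given here as sums of fitted levels. The 10 hepatocyte markers, of the liver that lies next to the gut, summed to 4602 normalised counts in double null guts, 1526 in Ret null guts, 4604 in Sema3d null guts and 2891 in wildtype guts. The 10 chaperones summed to 43056 in double null guts, 37959 in Ret null guts, 38010 in Sema3d null guts and 40208 in wildtype guts. Both sums were thus above wildtype in double null guts and below it in Ret null guts. In Sema3d null guts the hepatocyte marker sum was above and the chaperone sum below wildtype. No marker sum carries a test. None of the 10 hepatocyte markers was called by DESeq in any of the authors' 4 deposited tables. Before adjustment, 3 were under 0.05 in Sema3d null guts and 2 in the product term, all positive, and 0 in double null and Ret null guts. Over all genes tested, 541 of 24747 were under 0.05 with a positive coefficient in Sema3d null guts, and 4.07% in the product term.

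Of the 10 hepatocyte markers, Afp and Alb, fetal and adult serum proteins, differed most between genotypes in normalised counts. In Ret null guts Apob was the largest part of the hepatocyte marker sum, so that sum does not follow all of its markers alike. Afp was fitted at 2003 normalised counts in double null guts, 281 in Ret null guts, 1719 in Sema3d null guts and 929 in wildtype guts of the authors' deposited 24-gut table. Alb was fitted at 824 in double null guts, 15.2 in Ret null guts, 758 in Sema3d null guts and 336 normalised counts in wildtype guts. At lower levels, Apoa2 and Ahsg had the same order of genotypes. Apoa2 had 51.7 in double null guts, 6.50 in Ret null guts, 47.2 in Sema3d null guts and 21.6 in wildtype guts. Ahsg had 26.6, 0.815, 25.8 and 10.9 normalised counts in double null, Ret null, Sema3d null and wildtype guts. The lipoprotein gene Apob ranged less, with 686 in double null guts, 569 in Ret null guts, 653 in Sema3d null guts and 670 in wildtype guts. The carrier protein gene Ttr had 188, 157, 240 and 183 normalised counts in double null, Ret null, Sema3d null and wildtype guts. The hepatocyte list had a median product coefficient of 0.79, with 7 of 10 above 0, and none of its markers was at 0 in wildtype guts.

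Of 8 endothelial markers, which label the lining of blood vessels, 5 were called higher in double null guts of the authors' deposited table: Pecam1, Cdh5, Kdr, Tie1 and Flt1. Over all 24663 genes tested there, 57 were called higher. The junction gene Cdh5 had 0.28 ± 0.06 (DESeq adjusted p = 6.59e-05), and Flt1, a receptor for vascular growth factors, had 0.47 ± 0.12 (DESeq adjusted p = 0.00720) in the authors' deposited table. None of the 8 was called by DESeq in Ret null guts, in Sema3d null guts or in the product term, with 0, 2 and 1 under 0.05 before adjustment. Over all genes tested, 8.43% in Ret null and 4.53% in Sema3d null guts were under 0.05 in either direction. In the product term 4.07% were, with a positive coefficient. Their sum was 7323 normalised counts in double null guts, 6087 in Ret null guts, 6675 in Sema3d null guts and 6081 in wildtype guts. Double null guts were also the genotype in which all 10 chaperones were fitted highest. In Sema3d null guts, however, the endothelial sum was above wildtype and the chaperone sum below it. In Ret null guts the endothelial sum was close to wildtype and the chaperone sum below it.

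All 12 enteric neuron and crest markers were called lower by DESeq in double null and in Ret null guts of the authors' deposited tables, and none in Sema3d null guts or the product term, where 0 and 1 were under 0.05 before adjustment. Over all genes tested, 461 of 24663 were called lower in double null guts and 559 of 24602 in Ret null guts. The lists for smooth muscle, gut epithelium, mesothelium, erythroid cells and pancreas held no call by DESeq in any of the authors' 4 deposited tables, with 0 to 2 markers per list and table under 0.05 before adjustment. Smooth muscle markers, 8 in number, summed to 13302 normalised counts in double null guts, 12411 in Ret null guts, 14789 in Sema3d null guts and 12833 in wildtype guts. The 6 mesothelium markers summed to 3382, 3287, 3387 and 3083, and the 6 erythroid markers to 29872, 32257, 33205 and 27524 normalised counts in double null, Ret null, Sema3d null and wildtype guts. Pancreas markers, 10 in number, summed to between 1245 and 1389 normalised counts in the 4 genotypes, and 1 of them, Ins2, was under 1 in wildtype guts. The part of any of these cell types in the chaperone values was not tested.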

How the data were processed

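Whole-gut poly-A libraries of 24 embryos were sequenced by the authors, per the labels' protocols. Per the submitters' processing notes, the tools were STAR and RSEM 1.2.31, FastQC 0.11.5, Trimmomatic 0.36, with DESeq 1.24.0, on GRCm38 (mm10). The authors deposited 4 tables of DESeq model results and no values per gut were used, so the depth of each library is unknown. The log2 coefficients were deposited by the authors, as were the deviances of the reduced and full models, treated here as a score of fit. Each p-value, with its adjusted p-value, is likewise the authors' own. The log base is not named in the file headers: fitted wildtype totals, in units of 1e6 normalised counts, were 11.6 to 13.7 with base 2 and 435 to 458 with the natural base. The labels aim at 30 read pairs in the same unit per library, so base 2 was used.

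Computed here (Python 3.11.15, numpy 2.4.6, pandas 2.3.3, SciPy 1.17.1, matplotlib 3.10.9) were fitted levels (the mean of both sexes), list counts and medians, and a derived error, the coefficient's size over the square root of the deviance difference. Intervals are 1.96 errors either way, so an interval leaves out 0 where the unadjusted p is under 0.05, and adds no second test. The derivation was tested on simulated data. Genes are called at an adjusted p under 0.05 over the whole table. The labels name separate guts as replicates. The 10 genes and 17 other lists were chosen with earlier results of these data known. Named genes are the 10, Ret, Sema3d, up to 4 genes per list with the smallest product p and up to 3 per other table, and the 8 nearest to Pdia4; not all are printed. Apob, Flt1 and Ins2 were named after their values were seen. Thresholds, re-adjustment, centring, log base and trends were varied. A test on counts per gut, planned if such counts were found, was not run.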

Additional observations from a re-analysis of the deposited data

Results flagged for a closer look

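Pdia4 is listed because the product term of the authors' deposited 24-gut table compares the effect of Ret loss with and without Sema3d, and Pdia4 passed its threshold. The log2 coefficient was 0.50 ± 0.11, with a DESeq likelihood-ratio adjusted p of 0.00542. Pdia4 was chosen by this value, so the p is a description and does not show that the effect differed. The Ret null guts lay at -0.16 ± 0.08 from wildtype in the authors' deposited table, while double null guts lay 0.34 above Sema3d null guts in the 24-gut model.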

How the results depend on the processing

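No paired analysis was possible because the deposited tables hold no value per gut. For the same reason leaving out replicates and the replicate block were not run. The number of the 10 genes called was 0 in each comparison with wildtype and 1 in the product term at adjusted p-values under 0.05, 0.1 and 0.01 and under both re-adjustments. Over genes with a level of at least 50, the adjusted p of the product term was 0.00352 for Pdia4 and 0.0640 for Hyou1, and over converged fits it was 0.0125 for Pdia4. Read as natural logs, the median product coefficient was 0.407 in place of 0.282. Of 160 coefficients of single genes under 5 other settings, none moved by more than its error, the largest move was 0.13, and 4 changed sign, 3 after removal of the GC trend and 1 after removal of the length trend. The trend settings were added after the data had been seen. Errors per gut are not shown by these tables.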

Other observations

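The 10 chaperone genes shared a direction between the sexes that no comparison above uses. In the authors' deposited 24-gut table the sex coefficient, male minus female on the log2 scale, was below 0 for all 10. It ran from -0.21 for Manf to -0.02 for Pdia3, with -0.17 for Hspa5, -0.16 for Creld2 and -0.11 for Pdia4. The median of the 10 was -0.11, beside 0.00 over 12186 genes with a level of at least 50, of which 47.1% were lower in male guts. The direction was not particular to the 10 genes. Canx had -0.07, Dnajc3 -0.13 and the cytosolic Dnajb1 -0.16, and the hepatocyte markers Afp and Alb had -1.40 and -1.67. Other ER genes lay above 0, such as Dnajc1 at 0.02 and Edem1 at 0.04. The coding of sex was read from genes of the sex chromosomes: Ddx3y had 11.19 and Xist had -11.26 in the same table. The deposited tables give no p and no error for the sex term, so this is a description without a test. The tables of 12 guts share their wildtype guts with each other, and the Pdia4 value in them was -0.16 with double null guts, -0.07 with Ret null guts and -0.05 with Sema3d null guts.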
